A study of Mus musculus with 6 samples.

Results

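The regions described here carried called H3K27ac after CD treatment and none after DMSO treatment, lay away from protein-coding gene ends, and held no Flag-Rxra peak. They were chosen from the peak lists by rule: a CD region on chromosomes 1 to 19, X or Y that overlapped no DMSO region by 1 bp or more, no 1 kb window around a RefSeq GRCm38 protein-coding gene start or end, and no peak of either Flag-Rxra replicate. The rule kept 80435 of 104437 CD regions (77.0%). They are called CD-only distal regions below. Their counterparts, chosen in the same way from the DMSO list, were 51640 of 75482 DMSO regions (68.4%) and are called DMSO-only distal regions. A further 9642 CD regions were distal, free of Flag-Rxra peaks and overlapped a DMSO region, and are called stable distal regions. The presence in one list and absence from the other chose these sets, so the sizes of the sets are a description and not a result.

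The study mapped chromatin by CUT&Tag in OG2X129 mouse embryonic fibroblasts under chemical reprogramming, the conversion of somatic cells into pluripotent stem cells with small molecules. H3K27ac was profiled after treatment with CD (2 samples) and with DMSO, a solvent (2 samples). A further group overexpressed Flag-tagged Rxra and was profiled with a Flag antibody (2 samples). CD3254 appears in the series title and is a synthetic ligand that activates retinoid X receptors. The labels give no day, dose or passage, and neither the sex nor the X copy number of the fibroblasts, do not say which compound the Flag-Rxra cells received, and do not say whether replicates were separate cultures. The 2 H3K27ac samples of a condition shared 1 peak list, so nothing below has a replicate error and no difference between CD and DMSO could be tested. The lists hold no read counts, so sequencing depth is unknown. Intervals are exact (Clopper-Pearson) 95% intervals and cover counting error only.

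H3K27ac is acetylation of lysine 27 of histone H3, deposited mainly by the acetyltransferases Ep300 and Crebbp. It marks active promoters and active enhancers, and away from promoters it is used as a sign of enhancer activity. Retinoid X receptors bind DNA as dimers with partners such as liver X, peroxisome proliferator-activated and retinoic acid receptors, and an agonist exchanges their corepressors for coactivators with acetyltransferase activity. In reprogramming of fibroblasts, somatic enhancers close while epithelial and then pluripotency enhancers open.

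The cell type named by the labels could be checked only through H3K27ac at gene ends. Of 10 fibroblast markers, 4 had a region at a gene end in the CD list and 4 in the DMSO list. Col1a1, Col1a2, Thy1, Prrx1 and Dcn had none in either list. Over all 21887 protein-coding genes, 38.3% had such a region in CD and 35.8% in DMSO. Of the longer list of 24 fibroblast and mesenchymal genes, 7 (29.2%) had one in CD and 10 (41.7%) in DMSO. At a gene end, macrophage markers had regions for 4 of 10 genes in CD and 2 of 10 in DMSO. Neural markers had regions for 2 of 11 genes in CD and 3 of 11 in DMSO, and endothelial markers for 5 of 10 in each. Keratinocyte markers had regions for 3 of 8 genes in CD and 2 of 8 in DMSO, muscle markers for 1 of 9 and 2 of 9, and adipocyte markers for 3 of 8 and 4 of 8. In bulk samples, more cells with a mark and more of the mark per cell cannot be told apart.

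A small share of the CD-only distal regions touched an annotated start that the rule did not use, either an alternative start inside a protein-coding gene or the start of a non-coding gene. RefSeq start windows on GRCm38.p6, from 250 bases before to 50 bases after a start, were touched by 420 CD-only distal regions (0.522%) and by 297 DMSO-only distal regions (0.575%). The 420 regions touched windows of 433 genes, of which 310 were long non-coding RNA genes and 123 were protein-coding. For printing, 6 protein-coding windows were considered that lay wholly inside a CD-only distal region at or above a −log10 q of 2. These 6 need not be all such windows. Of the 6, 4 are printed below as examples with a range of CpG content, picked after their values were seen. The others considered were at 4930453N24Rik (−log10 q 2.51) and Trak1 (2.102). All are on the strand of the gene, and capitals mark the motif AGGTCA bound by nuclear receptors, the AP-1 motif TGANTCA, the TEAD motif GGAATG or the GC box GGGCGG, each searched on both strands.
Echdc1, chr10:29313250-29313549, plus strand: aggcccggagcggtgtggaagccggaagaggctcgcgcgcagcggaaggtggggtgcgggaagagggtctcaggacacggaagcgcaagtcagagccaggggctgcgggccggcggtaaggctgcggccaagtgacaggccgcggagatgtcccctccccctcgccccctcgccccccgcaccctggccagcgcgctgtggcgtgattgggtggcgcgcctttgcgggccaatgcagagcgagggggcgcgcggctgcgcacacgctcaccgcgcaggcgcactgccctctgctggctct
Etv1, chr12:38783461-38783760, plus strand: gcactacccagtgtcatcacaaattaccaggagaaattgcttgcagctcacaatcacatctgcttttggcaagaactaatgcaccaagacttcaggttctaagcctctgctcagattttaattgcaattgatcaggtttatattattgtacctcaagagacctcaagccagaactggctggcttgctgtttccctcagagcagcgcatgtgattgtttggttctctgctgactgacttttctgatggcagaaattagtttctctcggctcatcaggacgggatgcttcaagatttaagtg
Lpin1, chr12:16610917-16611216, minus strand: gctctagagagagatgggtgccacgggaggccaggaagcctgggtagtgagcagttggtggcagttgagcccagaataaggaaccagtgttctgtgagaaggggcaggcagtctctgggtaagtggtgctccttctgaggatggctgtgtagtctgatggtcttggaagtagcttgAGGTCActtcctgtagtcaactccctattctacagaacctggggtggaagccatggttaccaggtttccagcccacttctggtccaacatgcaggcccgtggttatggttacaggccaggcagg
Zbtb38, chr9:96719396-96719695, minus strand: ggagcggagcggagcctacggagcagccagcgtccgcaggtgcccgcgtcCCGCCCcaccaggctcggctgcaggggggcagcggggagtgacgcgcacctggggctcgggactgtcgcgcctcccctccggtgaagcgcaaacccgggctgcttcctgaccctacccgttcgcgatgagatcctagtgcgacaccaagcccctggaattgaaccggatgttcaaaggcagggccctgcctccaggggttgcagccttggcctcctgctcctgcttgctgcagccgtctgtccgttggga

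The Echdc1 window held 34 CpG dinucleotides and 73.3% G and C, and that of Zbtb38 held 25 CpGs. The Etv1 window, by contrast, held 3 CpGs and 44% G and C, and the Lpin1 window 2 CpGs. Etv1 encodes an ETS transcription factor, Lpin1 a phosphatidate phosphatase of lipid synthesis, and Zbtb38 a zinc finger protein that binds methylated DNA. The Echdc1 region was 550 bp wide, with a fold of 4.83 over the peak caller's background and a −log10 q of 3.77, and lay 21293 bp from the nearest DMSO region. That at Etv1 had a fold of 4.39 and a −log10 q of 3.37, 33390 bp from a DMSO region and 3866 bp from a Flag-Rxra peak. At Lpin1 the values were 3.76 and 2.16, and at Zbtb38, where the DMSO list had a region only 497 bp away, 3.28 and 2.12. Lpin1 held an AGGTCA and Zbtb38 a GC box, while neither motif nor the other marked motifs were in the Echdc1 and Etv1 windows.

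Over the 130 protein-coding windows touched by CD-only distal regions, 26.9% (19.5 to 35.4) held the GC box, against 28.3% (19.4 to 38.6) of 92 windows touched by DMSO-only distal regions and 46.2% of all 21263 protein-coding windows. The median number of CpGs was 6 in either touched set and 13 in all windows. By the rule the touched protein-coding windows were of starts away from gene ends, while all windows include starts at gene ends. The touched sets and all windows are thus not like groups. AGGTCA was in 16.9% (10.9 to 24.5) of the windows under CD-only regions, in 22.8% (14.7 to 32.8) of those under DMSO-only regions and in 14.7% of all. The AP-1 motif was in 8.46%, 11.96% and 6.99% of the same windows. Direct repeats of AGGTCA with 1, 4 or 5 bases between them, which retinoid X receptor dimers recognise, were in 0 of the 130 windows, which allows a share of up to 2.80%, and in 10, 0 and 1 of the 21263. In the 337 long non-coding windows under CD-only regions AGGTCA was in 24.3% (19.8 to 29.3), against 28.1% (22.6 to 34.0) of 253 under DMSO-only regions and 19.1% of all. A direct repeat with 1 base between was in 0 of these 337 windows, 1 of the 253 and 3 of all 11588 long non-coding windows. One with 4 bases between was in 1 of the 337 and one with 5 bases in 1. The counts for these were 0 and 0 of the 253, and 5 and 2 of the 11588. The windows of the CD-only and DMSO-only sets thus had overlapping intervals for the GC box, AGGTCA and the AP-1 motif.

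MicroRNA hairpins give a second set of sequences under these regions. Of 1005 hairpins in the RefSeq table, CD-only distal regions touched 21 and held 12 in full, and DMSO-only distal regions touched 15 and held 9 in full. The microRNAs below are shown because their biology is well studied, and they were picked after their values were seen. The first 4 come from hairpins wholly inside CD-only distal regions, and the next 4 from hairpins that DMSO-only distal regions held wholly (miR-140 and miR-100) or touched in part (miR-295 and miR-200c, by 45 and 50 bp). Capitals mark the seed, bases 2 to 8.
miR-293-3p, chr7:3220390-3220411, plus strand: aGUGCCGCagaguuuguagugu
miR-196a-5p, chr11:96265187-96265208, plus strand: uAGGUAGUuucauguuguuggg
miR-449a-5p, chr13:113037549-113037570, plus strand: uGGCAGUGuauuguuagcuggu
miR-378b, chr11:88352839-88352858, plus strand: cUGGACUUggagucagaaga
miR-295-3p, chr7:3220815-3220837, plus strand: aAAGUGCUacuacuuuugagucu
miR-200c-3p, chr6:124718324-124718346, minus strand: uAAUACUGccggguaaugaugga
miR-140-3p, chr8:107551288-107551308, plus strand: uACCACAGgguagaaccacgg
miR-100-5p, chr9:41531437-41531458, plus strand: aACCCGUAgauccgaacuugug

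The hairpins of miR-293 and miR-295 belong to the same microRNA cluster of embryonic stem cells on chromosome 7, and they fell on opposite sides of the comparison. The CD-only region at Mir293 was 300 bp wide (chr7:3220143-3220442) with a −log10 q of 1.03. The DMSO-only region at Mir295 began 355 bp further on (chr7:3220797-3221040) with a −log10 q of 1.203. Both values sit close to the lower limit of their lists. Mir196a-1, in the HoxB cluster, lay in a CD-only region of 628 bp with a −log10 q of 1.29. Mir449a, expressed in multiciliated epithelia, lay in one of 934 bp with 1.44. The highest value among these 8 was the 2.08 of the DMSO-only region at Mir100. The highest value of any CD-only region at a hairpin was 2.70, at Mir466k (chr3:85467345-85467601, fold 4.19).

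Most CD-only distal regions were weak and short. Their −log10 q had a median of 1.36 (quartiles 1.15 and 1.66), against 1.46 (1.25 and 1.76) in DMSO-only and 1.53 (1.27 and 1.97) in stable distal regions. The authors' list stopped at 1.00. Of the CD-only distal regions 19.5% (19.2 to 19.8) had a −log10 q below 1.1, against 2.67% (2.53 to 2.81) of the DMSO-only ones, so the lists differed in how many regions they admitted just above the limit. A −log10 q of 2 or more was reached by 9358 CD-only (11.6%), 7451 DMSO-only (14.4%) and 2279 stable distal regions (23.6%), and one of 5 or more by 90, 56 and 207. Median widths were 249 bp in CD-only, 281 bp in DMSO-only and 370 bp in stable distal regions, and median folds were 3.14, 3.11 and 3.21. In total the CD-only distal regions covered 26.2 Mb and the DMSO-only ones 18.5 Mb.

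**Figure D1:**
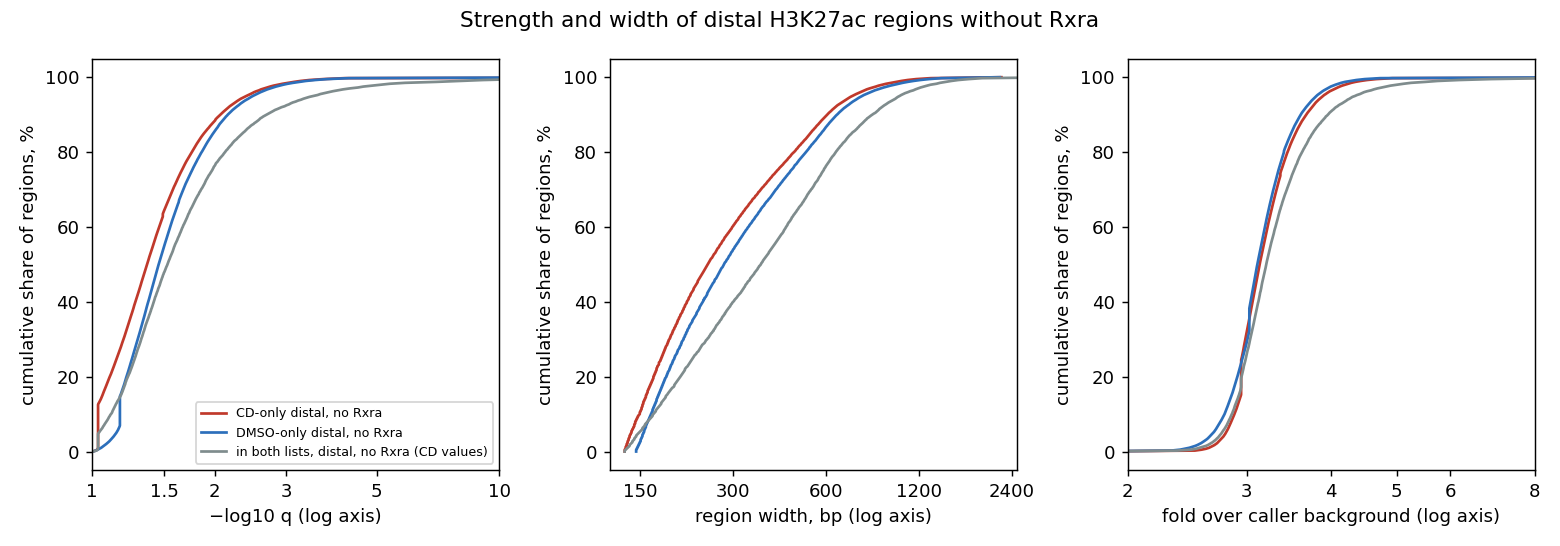
Cumulative share of regions (y, %) by −log10 q, width in bp and fold over the caller's background (x, log axes), for CD-only, DMSO-only and stable distal regions without Flag-Rxra. At the median, the CD-only line is left of both others for −log10 q (1.36) and width (249 bp), and the vertical steps are regions that share 1 value.

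The vertical steps in that plot come from tied values. As many as 7366 CD-only distal regions (9.16%) had exactly the same pair, a fold of 2.94 and a −log10 q of 1.03, and the next most frequent pair was shared by 566. In the DMSO-only set 3157 regions (6.11%) shared a fold of 3.03 and a −log10 q of 1.17. The cut at 1.1 used above falls between the tied values of the CD-only and DMSO-only sets, so the ties are part of the contrast at that cut. Among stable distal regions 238 (2.47%) had the CD pair. Of the CD-only distal regions on chromosome X, 22.3% carried the tied pair, against 16.2% of the DMSO-only ones there with theirs.

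At the upper end stood a few regions far above the rest. The strongest CD-only distal region lay inside Setd4, which encodes a lysine methyltransferase (chr16:93597930-93598134), with a fold of 25.3 and a −log10 q of 163. No DMSO-only distal region went above a fold of 10.3 or a −log10 q of 19.8. Stable distal regions, by their CD values, reached a fold of 22.0 and a −log10 q of 73.4. The next CD-only region lay 1093 bp from Foxn2, a forkhead factor gene (chr17:88439454-88439611), with a fold of 13.5 and a −log10 q of 37.4. It was 965 bp from a DMSO region and 685 bp from a Flag-Rxra peak. Next came a region 12471 bp from N4bp2 (fold 11.3) and a region 403049 bp from Htr1b, a serotonin receptor gene (fold 11.8), which had no DMSO region within 263210 bp but another CD region 617 bp away. Others among the 12 strongest lay inside Gpc5, Rabgap1l, Nalcn and Akain1 or nearest to Tpd52, Car6, Gbp5 and Apbb1ip, with folds of 6.72 to 10.4 where the −log10 q was 14.6 to 18.7. All but Gbp5 (914 bp) and Car6 (487 bp) were narrower than 300 bp. The widest CD-only distal regions were of ordinary strength: the widest, 2225 bp, lay 87012 bp from Tgfb2 with a fold of 3.05.

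In their position relative to genes the CD-only distal regions resembled their counterparts. They lay inside protein-coding genes in 52.8% (52.5 to 53.2) of cases, against 54.1% (53.6 to 54.5) for DMSO-only and 53.2% (52.2 to 54.2) for stable distal regions. The median distance to a gene end was 25358 bp, 24676.5 bp and 23192.5 bp in the same order. Outside genes, 53.8% (53.2 to 54.3) of CD-only distal regions with a stranded nearest gene were upstream of it, against 54.5% (53.8 to 55.2) of DMSO-only ones. An end of a non-coding gene lay within 1 kb of 5.02% of CD-only and 5.03% of DMSO-only distal regions, most of them long non-coding RNA genes (3.27% and 3.34%).

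They differed in their distance from the other list and from Rxra. A DMSO region lay within 5 kb of 42.0% (41.7 to 42.4) of the CD-only distal regions, whereas a CD region lay within 5 kb of 56.0% (55.6 to 56.5) of the DMSO-only ones. Conversely, 9.35% (9.15 to 9.56) of the CD-only regions were more than 50 kb from any DMSO region, against 2.01% (1.89 to 2.14) of the DMSO-only regions and their distance from CD regions. The CD list was the longer of the pair. With it held to its strongest 75482 regions, the length of the DMSO list, the share of CD-only regions within 5 kb was 44.1%. This share was still measured to the whole DMSO list. The DMSO-only shares were not recomputed against the shorter CD list, so whether the difference holds at equal length was not tested. The rule removed regions with a Flag-Rxra peak, and these were 3.87% of all CD-only and 7.34% of all DMSO-only distal regions. Among those kept, the nearest Flag-Rxra peak was within 5 kb of 30.4% (30.1 to 30.8) of CD-only, 33.9% (33.5 to 34.3) of DMSO-only and 38.8% (37.9 to 39.8) of stable distal regions. With a −log10 q below 1.3, 27.9% of CD-only regions had one within 5 kb, against 32.9% of DMSO-only regions. From 1.5 to 2 the shares were 33.2% and 34.3%, from 2 to 3 they were 31.8% and 33.2%, and from 3 to 5 they were 30.0% and 33.7%. From 1.3 to 1.5 they were 31.8% and 34.9%, and at 5 or more 28.9% and 28.6%. The CD-only share was thus the lower in every class below 5. The intervals of the shares were apart in the classes below 1.5 and overlapped in each class from 1.5 up.

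**Figure D2:**
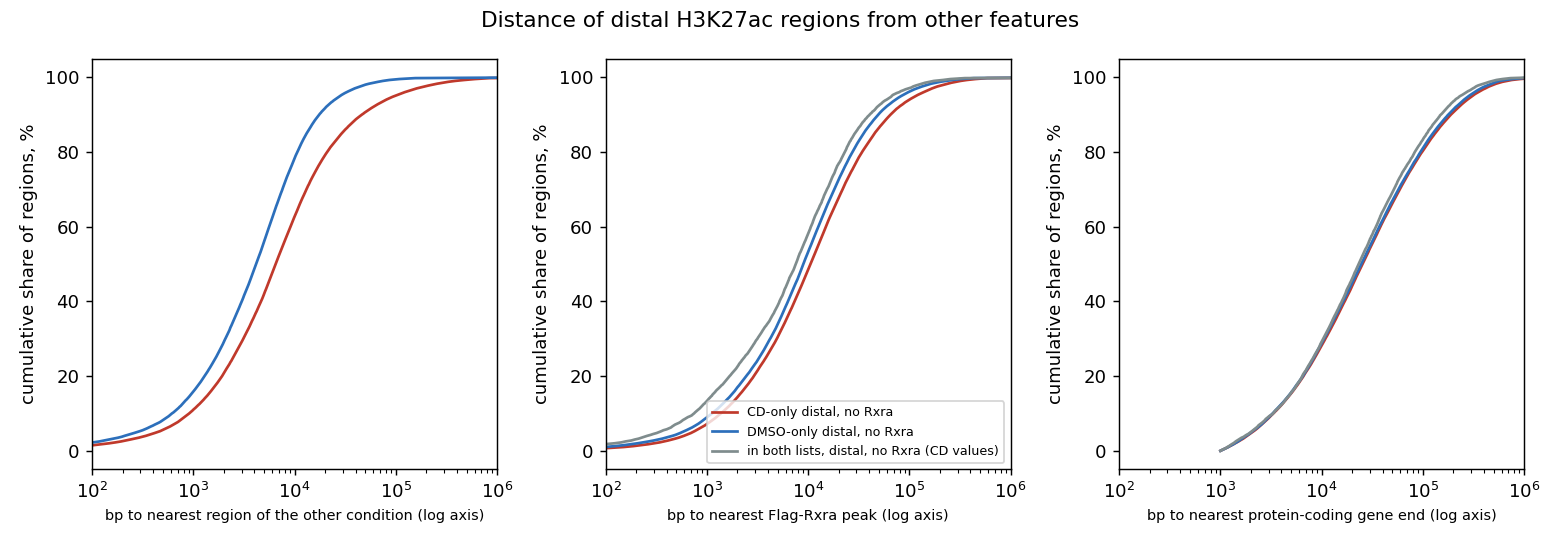
Cumulative share of distal regions (y, %) by distance in bp (x, log axis) to the nearest region of the other condition, Flag-Rxra peak and protein-coding gene end. The CD-only line runs right of the DMSO-only line for the other condition (medians 6475 bp and 4165 bp) and for Flag-Rxra (10545 bp and 8970 bp), and the lines nearly coincide for gene ends.

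The edges of the rule were not sharp in these values. The 610 CD-only distal regions with 1 to 50 bp to a DMSO region had a median −log10 q of 1.36, and the 877 CD regions that overlapped one by 1 to 50 bp had 1.44. The 421 regions within 100 bp beyond a 1 kb gene-end window had a median of 1.39, and the 461 left out by the last 100 bp of such a window had 1.36.

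Taken whole, chromosome X stood apart from each autosome in the balance between the lists. The CD share, the number of CD-only distal regions over the sum of CD-only and DMSO-only ones, was 60.9% (60.6 to 61.2) in all. On the 19 autosomes it ran from 59.2% on chromosome 9 to 62.3% on chromosome 6. The sex and X copy number of the cells in either condition are not known. On X, 1021 CD-only faced 451 DMSO-only distal regions, a share of 69.4% (66.9 to 71.7). All 7 stretches of 10 Mb on X with at least 100 regions had a share above the genome's, from 65.2% to 74.8%, against 127 of 250 such stretches on autosomes. The autosomal stretches ran from 53.3% to 75%, so some of them had shares as high as those on X. Chromosome Y had 17 CD-only and 6 DMSO-only distal regions. X held 1.27% of the CD-only and 0.873% of the DMSO-only distal regions and 1.54% and 1.75% of the Flag-Rxra peaks of replicates 1 and 2.

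The difference on X was wider among weak regions. At or above a −log10 q of 2, X had 91 CD-only and 67 DMSO-only regions, a share of 57.6% (49.5 to 65.4), against 55.6% (54.9 to 56.4) on autosomes. X held 1.61% of the CD-only regions with a −log10 q below 1.3, 1.11% of those from 1.3 to 1.5, 0.679% of those from 3 to 5 and none of the 90 at 5 or more. With the CD list at the length of the DMSO list, the share was 55.8% (52.8 to 58.9) on X and 51.2% (50.9 to 51.5) on autosomes.

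**Figure D3:**
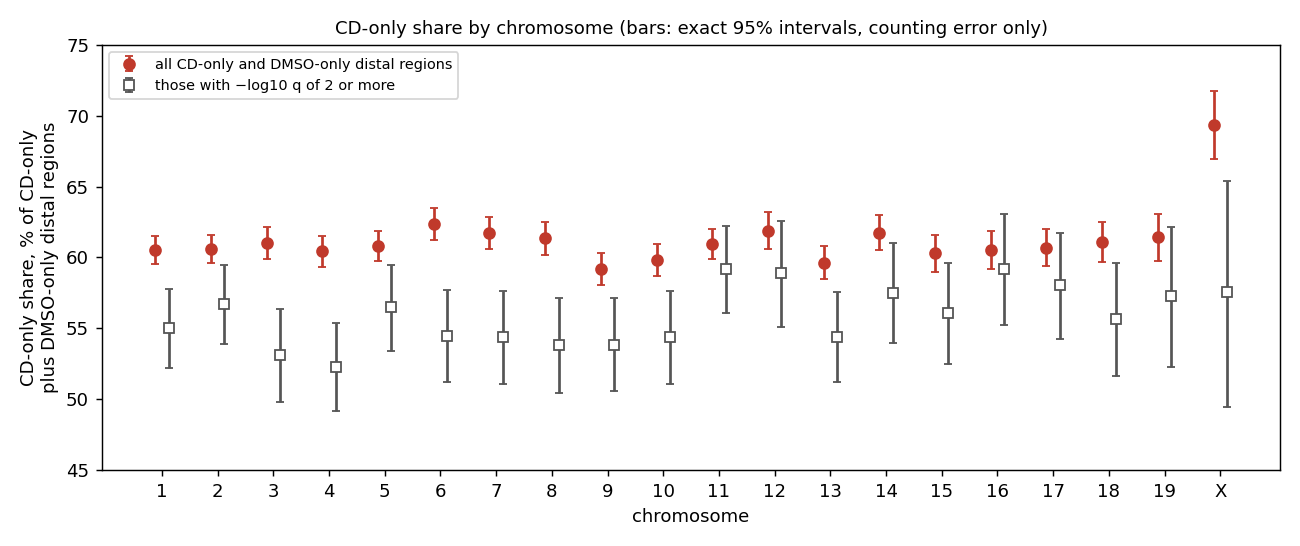
CD share (y, % of CD-only plus DMSO-only distal regions) by chromosome (x) with exact 95% intervals for counting error, over all such regions and over those at or above a −log10 q of 2. X stands at 69.4% above the autosomes (59.2% to 62.3%), and at 57.6% within them among the stronger regions.

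Gene neighbourhoods were compared next by counting CD-only and DMSO-only distal regions within 50 kb of each protein-coding gene body. At least 1 CD-only distal region lay within 50 kb of 19245 of 21887 genes (87.9%), and the median gene had 6 CD-only and 3 DMSO-only regions. A gene was said to have a CD excess if it had at least 3 more CD-only than DMSO-only regions and at least 2 times as many, and a DMSO excess in the converse case. The CD excess rule was met by 6149 genes (28.1%) and the DMSO excess rule by 545 (2.49%). On X, 125 of 966 genes (12.9%) had a CD excess and 10 (1.04%) a DMSO excess, against 29.2% and 2.59% of autosomal genes, while X held 1.27% of all CD-only distal regions. These counts moved with the lengths of the lists: with the CD list held to 75482 regions, 2851 genes had a CD and 1899 a DMSO excess. With both lists limited to a −log10 q of at least 2, 786 had a CD and 490 a DMSO excess.

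The genes with the largest excess were long genes. This ranking used the plain difference in counts, and the neighbourhood of a long gene is larger and can hold more regions. Zfhx3, a zinc finger homeobox factor gene, led with 58 CD-only and 20 DMSO-only distal regions, of which 54 and 18 lay inside it. Its CD-only regions had a median −log10 q of 1.28, and 8 of them reached 2, against 2 of the DMSO-only ones. Auts2 had 75 and 42, a ratio too low for a CD excess, and Cdh13, which encodes a cadherin, had 61 and 28. Arhgap26 had 60 and 30, Dst 38 and 12, Fhit 37 and 11, Tshz2 42 and 16, Arid1b 39 and 14, Tbxas1 30 and 6, and Hivep3 40 and 17. The most uneven of them was Nrxn3, a neurexin gene of 1612.23 kb, with 27 CD-only and 1 DMSO-only region. Its strongest CD-only region (chr12:89888143-89888306) had a fold of 4.23 and a −log10 q of 2.67, and 15 of the 27 were below 1.3. At Fhit no CD-only region reached a −log10 q of 2, whereas 3 of its 11 DMSO-only regions did.

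Rbms3, an RNA-binding protein gene, held the most CD-only distal regions inside its body, 77, and 62 DMSO-only ones. Pde4d, a phosphodiesterase gene, held 58 and 57. Large numbers of CD-only regions inside a gene thus did not by themselves mean an uneven balance.

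Per Mb of neighbourhood, where the same difference weighs more in a smaller neighbourhood, shorter genes led. Catsper3, a sperm cation channel gene, had 18 CD-only and 1 DMSO-only distal regions, with 3 CD-only ones at or above a −log10 q of 2. Pdp1, a phosphatase of pyruvate dehydrogenase, had 15 and 2. Siglecg had 14 and 1, Evpl (envoplakin, of epithelial cornification) 15 and 2, Cse1l (a nuclear export receptor) 19 and 4, and Cfl2 (muscle cofilin) 14 and 3. Akp3 had 15 and 3, the chemokine gene Ccl12 14 and 3, and Fbxo39 12 and 1. Gm52612, 2410004P03Rik and Acsbg3 each had 13 and 1. With no DMSO-only region at all, Pfdn1 had 15 CD-only regions, Emcn (endomucin, an endothelial sialomucin) 14, Mppe1 12, Npffr1 12, Cdh18 11, Gnal 11, Rhov 11 and Cmtm1 10. The Mppe1 and Gnal neighbourhoods overlap and share regions. At Cdh18 all values were low, with a highest −log10 q of 1.40, while Npffr1 had one CD-only region of 3.35 inside the gene (chr10:61612671-61612862, fold 4.23).

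The largest differences in favour of DMSO were at Map4k4, Rbfox1, Lhfpl2, Runx2, Hmbox1 and Masp1, of which Rbfox1 and Runx2 missed the ratio for a DMSO excess. Map4k4, a kinase gene, had 11 CD-only and 24 DMSO-only distal regions, and Rbfox1, a splicing factor gene, had 32 and 45. Runx2, the master factor of bone and a somatic factor of fibroblasts, had 22 and 33, of which 14 and 25 lay inside it. Lhfpl2 had 11 and 22, Hmbox1 8 and 18, and Masp1 7 and 17.

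**Figure D4:**
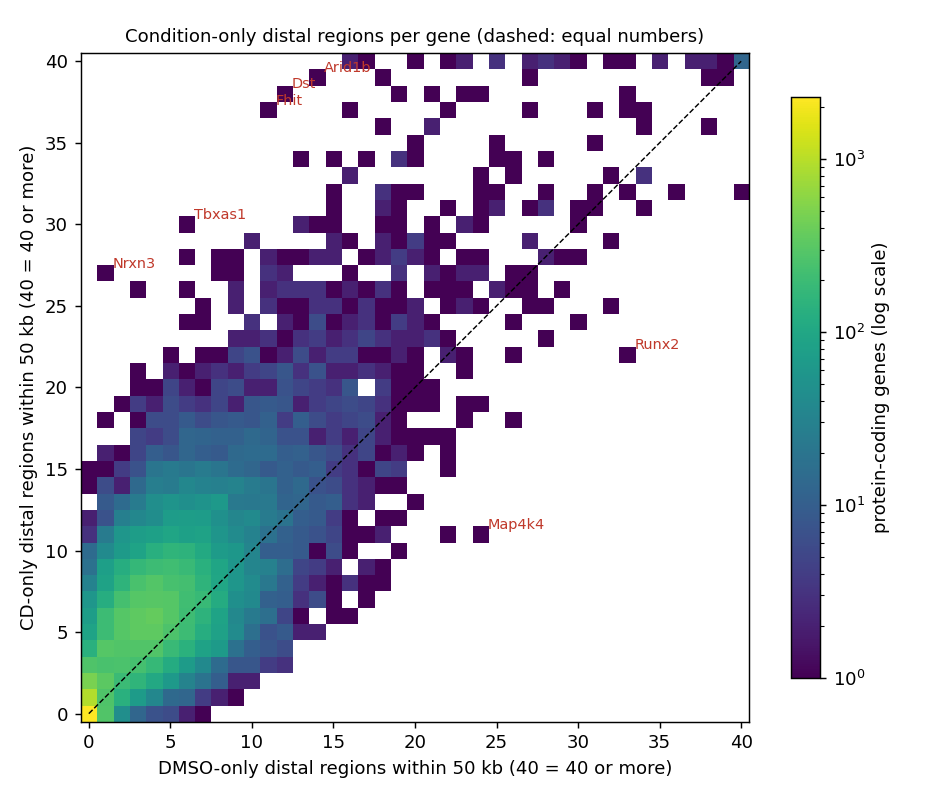
Protein-coding genes by number of DMSO-only (x) and CD-only (y) distal regions within 50 kb, values above 40 drawn at 40, with colour for the number of genes on a log scale. Most genes lie above the dashed line of equal numbers (median 6 CD-only and 3 DMSO-only), with Nrxn3 (27 and 1) far above it and Map4k4 (11 and 24) below.

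Gene lists for states and pathways of reprogramming were then read against all genes, around which the CD share was 60.5% (60.3 to 60.7). Regions near neighbouring genes of a list count for each, so the intervals of these shares treat some regions as more than 1 count and are too narrow. Counts of genes with a CD or DMSO excess are to be read against the 28.1% and 2.49% of all genes. Those shares hold for the whole lists. At a −log10 q of at least 2 in both lists far fewer of all genes had an excess. List counts at that limit are to be read against the numbers given above for it. Epithelial genes of the mesenchymal-epithelial transition had the highest share, 70.1% (61.97 to 77.3), with 103 CD-only and 44 DMSO-only distal regions. Of 14 genes, 13 had more CD-only than DMSO-only regions and none had fewer, 8 had a CD excess (57.1%, against 28.1% of all genes) and 0 a DMSO excess. Ocln, a tight junction protein gene, had 11 and 2, and Grhl2, an epithelial transcription factor, 11 and 3. The claudin genes Cldn3 and Cldn4 each had 8 and 2, with their strongest CD-only region in common (chr5:134983582-134983879, fold 3.54). Epcam, an adhesion molecule of epithelia, had 10 and 4, and Cdh1, E-cadherin, 12 and 7. Within Cdh1 lay a CD-only region with a fold of 4.81 and a −log10 q of 3.78 (chr8:106654111-106654312). None of Grhl2's CD-only regions reached a −log10 q of 2. At that limit in both lists the epithelial share was 50% (31.3 to 68.7), against 54.3% around all genes, and 0 genes had a CD excess. With the lists at equal length it was 62.9% (53.8 to 71.4), against 51.6%.

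Pluripotency factors had a share of 63.3% (56.6 to 69.6), while 5 of 24 (20.8%) had a CD excess, a smaller part than the 28.1% of all genes, and 0 a DMSO excess. Klf5, a reprogramming factor, had 13 CD-only and 6 DMSO-only distal regions, with one inside the gene at a −log10 q of 3.19 (chr14:99306857-99307010). Sall4 had 10 and 3, the growth factor gene Fgf4 7 and 1, Esrrb 8 and 3, and Mycn 5 and 0. Nanog had 9 and 6 and Sox2 1 and 0, while Pou5f1, whose regulatory sequence drives the reporter of OG2 cells, had 4 and 6. At a −log10 q of at least 2 in both lists the share was 43.6% (27.8 to 60.4), and with lists of equal length 54.7%. Extraembryonic endoderm genes, which mark an intermediate of chemical reprogramming, had a share of 62.5% (56.3 to 68.5), with a CD excess at 7 of 15 (46.7%) and a DMSO excess at 0. Col4a1, a basement membrane collagen gene, had 21 and 12, Hnf4a 14 and 7, Sox17 6 and 1, and Foxa2 4 and 1. Their share was 65.2% (49.8 to 78.6) among the stronger regions and 54.1% with lists of equal length.

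The RNA exosome, the nuclease complex named in the series title, was examined as subunits and as cofactors. Cofactors had a CD share of 69.1% (61.8 to 75.7). All 13 had more CD-only than DMSO-only distal regions, 7 (53.8%) had a CD excess and 0 a DMSO excess. Mtrex, the helicase that feeds RNA into the nuclear exosome, had 15 and 4, and 3 of its CD-only regions but none of its DMSO-only ones reached a −log10 q of 2. Zc3h3 had 19 and 8, the poly(A) polymerase genes Tent4b and Tent4a had 13 and 4, and 14 and 6, and Zcchc7, of the TRAMP complex, 9 and 3. The share was 61.5% (53.1 to 69.4) with lists of equal length and 65.5% (45.7 to 82.1) at a −log10 q of at least 2, where 2 genes had a CD excess. Exosome subunits and nucleases had a share of 61.0%, close to that of all genes, with a CD excess at 6 of 14 (42.9%) and a DMSO excess at 0. The nuclease gene Dis3l had 8 and 1, with one CD-only region at a −log10 q of 3.14, and the core gene Exosc8 6 and 1. Exosc7 had 15 and 9, while Exosc4 had 4 and 7.

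Targets of RXR heterodimers had a CD share of 59.0% (54.1 to 63.8), with a CD excess at 11 of 27 genes (40.7%) and a DMSO excess at 2. The sterol exporter genes Abcg1 and Abca1 had 14 and 4, and 11 and 4. Srebf1, which drives fatty acid synthesis, had 11 and 4, Cpt1a, of fatty acid oxidation, 13 and 6, and Cyp26a1, which degrades retinoic acid, 12 and 5. No CD-only region of Abcg1, Abca1 or Srebf1 reached a −log10 q of 2, and the share of the list at that limit was 47.5% (34.6 to 60.7), with 0 genes in CD excess. Stra6, the receptor for retinol-binding protein, went the other way with 7 and 15, and Pltp had 3 and 7. The receptors and coregulators themselves had a share of 54.4%, with 5 in CD excess (19.2%) and 4 in DMSO excess (15.4%) of 26. Ppara had 13 and 4, and the corepressor gene Ncor1 14 and 6. Rara had 5 and 12, the circadian repressor gene Nr1d2 4 and 10, and its relative Nr1d1 4 and 9. Rxra itself had 15 CD-only and 19 DMSO-only distal regions.

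Interferon and nucleic acid sensing genes had a CD share of 53.6% (47.5 to 59.6), below that of all genes, and 42.7% (36.3 to 49.3) against 51.6% with lists of equal length. Of 27 genes, 5 had a CD excess (18.5%) and 2 a DMSO excess (7.41%). A share below that of all genes was not particular to them. Housekeeping genes (54.6%) and neural markers (53.1%) were also below it, while epithelial genes (70.1%) were above. Ifnb1, interferon beta, had 3 CD-only and 10 DMSO-only distal regions, and the receptor gene Ifnar1 6 and 12. The RNA sensor gene Ifih1 had 8 and 1, and Oas1a, a synthetase of the antiviral response, also 8 and 1, with the strongest CD-only region of that gene 3546 bp away from it at a −log10 q of 3.71. Genes of NF-kB and inflammation had 53.4% (47.8 to 59.0), with 6 in CD excess (23.1%) and 3 in DMSO excess (11.5%) of 26. Nfkbia, the inhibitor induced by NF-kB, had 5 and 12, the lipopolysaccharide receptor gene Tlr4 3 and 7, and Ccl5 3 and 7. Ccl7 had 12 and 6, and the inhibitor gene Tnfaip3 8 and 3. At a −log10 q of at least 2 the shares were 44% (30.0 to 58.7) and 54.5% (38.8 to 69.6).

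Fibroblast and mesenchymal genes had a CD share of 54.7% (49.3 to 60.1), with a CD excess at 5 (20.8%) and a DMSO excess at 1 (4.17%) of 24. Twist1, a mesenchymal transcription factor gene, had 0 CD-only and 5 DMSO-only distal regions beside 3 stable ones. Fbn1 had 28 and 19, the growth factor receptor gene Pdgfra 14 and 6, Postn 6 and 1, and Fap 7 and 2. The strongest CD-only region near Fap was also that inside Ifih1 (chr2:62625151-62625476, fold 4.46). AP-1, TEAD, RUNX and CEBP factors had 56.1%, with 3 in CD excess (16.7%) and 1 in DMSO excess (5.56%) of 18. Here Tead4 had 12 and 2, Tead1 25 and 14, Runx1 29 and 20, Runx2 22 and 33 as above, and Fosl1, a subunit of AP-1, 1 and 4. TGF-beta genes had 56.1% with 4 of 25 (16%) in CD excess, against 28.1% of all genes, among them Ccn2, a matricellular target, with 7 and 0, and Ltbp1 had 43 and 25. Wnt genes had 56.5% with 2 of 26 (7.69%) in CD excess, and the effector gene Lef1 had 19 and 12. DMSO excess was met by 0 genes of either pathway, against 2.49% of all genes.

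Retroelement silencing genes had a share of 60.6% (54.4 to 66.6), with a CD excess at 8 of 20 (40%) and a DMSO excess at 0. Atf7ip, a partner of the methyltransferase Setdb1, had 20 CD-only and 8 DMSO-only distal regions, of which 5 and 0 reached a −log10 q of 2. Ehmt1 had 16 and 9, the methyltransferase gene Dnmt3b 9 and 2, and Trim28, the KAP1 corepressor, 5 and 2. Cholesterol synthesis genes had 56.5%, with 5 in CD excess and 1 in DMSO excess of 20. Fdft1, which makes squalene, had 13 and 6. Housekeeping genes had 54.6%, with 3 and 2 of 15.

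Marker lists of other cell types ran from 53.1% to 64.9%, below the epithelial genes and exosome cofactors. Macrophage markers had a share of 64.9% (54.4 to 74.5), with 5 of 10 in CD excess. Lyz2, a lysozyme gene of macrophages, had 10 CD-only and 0 DMSO-only distal regions, and Spi1, the PU.1 factor, 11 and 3. Adipocyte markers also had 64.9%, with 4 of 8 in CD excess, Adipoq having 9 and 3 and Fabp4 7 and 1. No adipocyte marker had fewer CD-only than DMSO-only regions. Endothelial markers had 60.4% (2 of 10), keratinocyte markers 57.1% (2 of 8), muscle markers 54.1% (1 of 9) and neural markers 53.1% (2 of 11). With lists of equal length the shares of macrophage and adipocyte markers were 53.2% and 59.0%, and that of epithelial genes 62.9%. The part of cell type mixture in these counts was not tested.

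**Figure D5:**
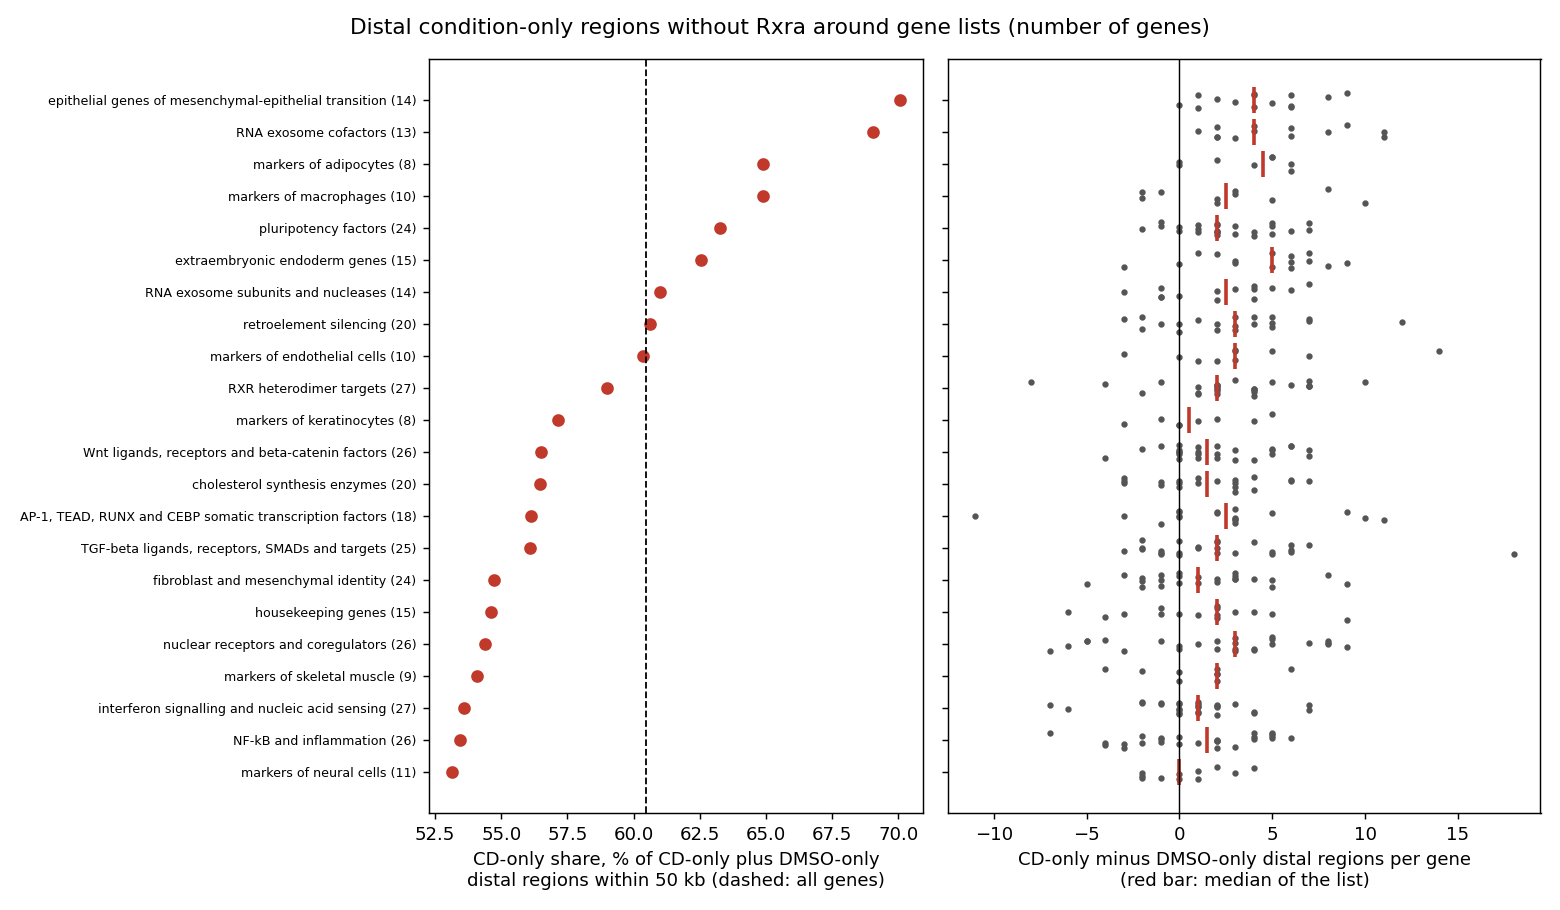
Left: CD share around each gene list (x, %, axis not from 0), dashed line at 60.5% for all genes. Right: CD-only minus DMSO-only distal regions for each gene (points) and the median of the list (red bar). Epithelial genes (70.1%), exosome cofactors (69.1%) and adipocyte markers (64.9%) have no gene left of 0, while interferon genes reach a difference of -7 at Ifnb1.

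CD-only distal regions also came in runs. A chain was a set of CD-only distal regions with gaps of at most 12.5 kb and no DMSO region in between, and the same was done for DMSO-only regions with the lists exchanged. Chains of 5 or more numbered 715 with 4043 CD-only regions (5.03%), against 141 with 757 DMSO-only regions (1.47%). The longest chain had 12 CD-only regions against 8 DMSO-only ones, and 46.2% of CD-only and 59.4% of DMSO-only distal regions stood alone. The longest lay in Camk2d, a calcium and calmodulin-dependent kinase gene (chr3:126719247-126775969). It spanned 56.7 kb, of which its 12 regions covered 4263 bp, and its highest −log10 q was 2.77. A chain of 11 lay over Gm4606, and chains of 10 lay in Ank and Otulin, in Cacna1i, a calcium channel gene, and in Lef1. Further chains of 10 lay 24723 bp from Eif3m, 1907 bp from 2410004P03Rik and 18691 bp from Pitx1, a homeobox gene. No chain of these 8 had a region above a −log10 q of 2.77, and 6 of the 8 had at least 1 region that reached 2. A Flag-Rxra peak in between did not break a chain. From 1 to 4 such peaks were counted at each of these 8 chains, with 4 at that in Camk2d. In all, 9 chains had 10 or more regions. Chains were not recounted with lists of equal length.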

How the data were processed

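CUT&Tag peak lists were used: 1 broad list for both H3K27ac samples of a condition and 1 narrow list for each Flag-Rxra sample, per the labels. Per the submitters' processing notes, the tools were MACS2 2.1.2 (peak calling), Bowtie2 2.2.5, fastp 0.20.1 and deepTools 3.4.3, on mm10. The sources used here do not state how replicates were combined or whether a control library entered. The score, fold (a ratio over the caller's background) and −log10 q of each peak are the authors' deposited values, and the summit offset was not used. The lowest −log10 q was 1.00 in either H3K27ac list and 5.00 for Flag-Rxra. Peaks off chromosomes 1 to 19, X and Y were left out (126 CD and 106 DMSO regions).

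Overlaps, distances and counts were computed with Python 3.11.15, numpy 2.4.6 and pandas 2.3.3, intervals with scipy 1.17.1, and checked on simulated data. Gene positions, start windows and microRNA sequences came from RefSeq tables of GRCm38.p6, the assembly of mm10. Of 396 gene list entries, 390 matched. Depth is unknown, and with 1 list per condition there is no test. Named genes are the 12 strongest regions, the 12 genes with the largest excess and the 12 per Mb, the 4 genes with most regions inside, the 8 longest chains and up to 4 per list. Some genes this rule names are not reported here. Genes with most DMSO-only regions in excess or with no DMSO-only region, others of a list, and microRNAs were named after their values were seen. The regions and gene lists were chosen with earlier results of these data known. A planned motif search in the regions was not run, because no genome was used here.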

Additional observations from a re-analysis of the deposited data

How the results depend on the processing

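Alternatives changed one choice at a time, and 14 were run. Of the values of the 8 main results under them, 45 moved and 62 did not. Limiting both H3K27ac lists to a −log10 q of 2 or more left 10547 regions, a median width of 241 bp, a median fold of 3.84, 53.6% inside genes, 9.42% within 5 kb of a DMSO region, 10611 genes with a region within 50 kb and 786 genes with a CD excess. A fold of 4 or more in both left 3410 regions (229 bp, fold 4.23, 52.4% inside genes, 1.67% within 5 kb), 4303 genes with a region, 82 with a CD and 12 with a DMSO excess. Limiting only the CD list to a −log10 q of 2 left 9358 regions (233 bp, fold 3.84, 53.6%, 43.6% within 5 kb), 9912 genes with a region, and 25 CD and 11160 DMSO genes, since the whole DMSO list was then set against few CD regions. A CD list as long as the DMSO list gave 252 bp, a fold of 3.27, 53.7% inside genes and 44.1% within 5 kb, with 2851 CD and 1899 DMSO genes. A −log10 q of 1.3 or more in both lists, chosen after the data were seen, left 47339 regions (252 bp, fold 3.34, 53.9%, 34.6% within 5 kb), with 3860 CD and 1269 DMSO genes.

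Extending DMSO regions by 1 kb gave a median fold of 3.14 and 34.8% within 5 kb, and requiring an overlap of 50% gave 43.6%. A gene-end window of 2.5 kb gave 52.2% inside genes, a fold of 3.14 and 41.2% within 5 kb. Windows at all RefSeq genes gave 53.8% inside genes. Extending Flag-Rxra peaks by 1 kb gave a fold of 3.14 and 40.7%. Counting within 25 kb of genes gave 18068 genes with a region, 4840 with a CD and 667 with a DMSO excess, each within 1.5 times the value at 50 kb. Leaving out either Flag-Rxra replicate, or removing only regions with peaks of both, moved none of the 8. The cause of these shifts beyond the fewer regions left was not tested. No paired analysis was possible because each H3K27ac condition had 1 list. Most of the regions lie near the authors' limit, so any statement that rests on weak regions depends on that limit and on the unknown depth of each library.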
